A study of Mus musculus with 12 samples.

Results

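The interferon-stimulated genes described here are 38 genes of innate antiviral defence, taken by symbol from a list of known members, and all 38 were among the 24421 genes counted and the 16364 that had enough reads to be tested. They were measured by bulk RNA sequencing in 12 mouse brain samples that form 4 groups of 3 libraries. The naive group was normal cortex of mice that received no injection. The other groups were whole tumours raised by injecting into the brain an RCAS virus, an avian retroviral vector, for a fusion gene: YAP1-TFE3, YAP1-FAM118B or YAP1-MAMLD1-dR3R1. YAP1 is the transcriptional co-activator restrained by the Hippo pathway, and each construct joins it to part of another protein. The series' design describes the tumours as frozen, whereas the extraction protocol of the samples speaks of cell cultures, and which holds could not be settled. The labels give no strain, age, sex or host allele and do not say whether each library had an animal of its own. The p-values thus measure the spread between these samples, part of which may be technical. Because the controls were neither injected nor infected, effects of the tumour, the virus and the injection cannot be told apart in any comparison with naive.

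Interferons are secreted signals of infection and inflammation. Type I interferons act through a receptor of IFNAR chains, and interferon gamma, which T and NK cells make, acts through a receptor of IFNGR chains. Both activate Janus kinases, which phosphorylate STAT proteins. Type I signals act on DNA mainly at the interferon-stimulated response element, which a complex with STAT2 and IRF9 binds, whereas interferon gamma acts mainly at the gamma-activated site. In the brain, microglia, astrocytes, endothelium and infiltrating leukocytes all respond, and the genes switched on code for sensors of foreign nucleic acid, transcription factors, RNA-binding effectors, blockers of virus entry and release, the ubiquitin-like ISG15 system and large and small GTPases that attack pathogen vacuoles.

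Promoters of these genes carried both kinds of element, and the windows below are examples picked from members with a match. RefSeq promoters on build GRCm38.p6, which run from 250 bases before to 50 bases after the transcription start, were found for 29 of the 38 members, in 33 promoters. The table used held none for Dhx58, Zbp1, Oas2, Mx1, Mx2, Usp18, Iigp1, Parp14 and Rtp4. The core of the response element, which is GAAA, any 2 bases and GAAA again on either strand, was present in 19 of 33 member promoters, or 57.6%, against 3.44% of the 32851 promoters in the table. The longer form, in which CT follows the core so that every match also holds it, was present in 11 of 33, or 33.3%, against 0.271% of all promoters. The gamma-activated site TTCNNNGAA, which reads the same on both strands, was present in 11 of 33, or 33.3%, against 8.30%. The core and the gamma-activated site stood together in 8 of 33, or 24.2%, against 0.454%. A match is a run of letters, not a measured binding site. Each window is written 5′ to 3′ on the strand of the gene, with bases of any match in capitals.
Bst2: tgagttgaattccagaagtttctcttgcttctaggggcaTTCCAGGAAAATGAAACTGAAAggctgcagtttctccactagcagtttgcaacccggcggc
Ifit3: tcagtggtaAGTTTCACTTTCctcttctgg
Rsad2: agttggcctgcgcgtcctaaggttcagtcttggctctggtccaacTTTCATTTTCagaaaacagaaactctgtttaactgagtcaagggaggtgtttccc
Ifit1: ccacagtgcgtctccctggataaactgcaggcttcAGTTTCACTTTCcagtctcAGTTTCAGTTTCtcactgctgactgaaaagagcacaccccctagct
Isg15: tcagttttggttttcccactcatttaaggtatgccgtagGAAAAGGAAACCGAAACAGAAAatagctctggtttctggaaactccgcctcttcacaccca
Gbp2: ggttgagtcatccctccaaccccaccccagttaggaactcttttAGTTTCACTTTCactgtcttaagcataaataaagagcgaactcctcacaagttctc
Igtp: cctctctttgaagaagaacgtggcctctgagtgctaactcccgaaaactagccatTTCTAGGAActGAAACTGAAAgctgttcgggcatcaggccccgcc
Irgm2: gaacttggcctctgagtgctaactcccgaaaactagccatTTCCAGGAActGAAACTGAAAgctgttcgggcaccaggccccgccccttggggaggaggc
Irf1: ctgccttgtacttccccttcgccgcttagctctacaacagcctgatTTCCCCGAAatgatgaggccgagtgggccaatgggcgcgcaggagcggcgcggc

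Positions are on GRCm38.p6. The Bst2 window (chr8:71537548-71537647, minus strand, 175 to 76 bases before the start) held a gamma-activated site that ran into overlapping copies of the core. For Ifit3 (chr19:34583362-34583391, plus strand, 167 to 138 bases before) only the stretch around its first match is shown. That of Rsad2 (chr12:26456518-26456617, minus strand, 165 to 66 bases before) held the core alone. Those of Ifit1 (chr19:34640748-34640847, plus strand, 141 to 42) and Gbp2 (chr3:142620558-142620657, plus strand, 105 to 6) held the longer element read on the opposite strand, as did Ifit3. In Isg15 (chr4:156200836-156200935, minus strand, 117 to 18) the core was repeated in overlapping copies. The windows of Igtp (chr11:58199456-58199555, plus strand, 100 to 1) and Irgm2 (chr11:58214862-58214961, plus strand, 115 to 16), neighbours on chromosome 11, were the same at 82 of 85 aligned bases, and in both a gamma-activated site lay 2 bases before the core. Irf1 (chr11:53769878-53769977, plus strand, 136 to 37) held only the gamma-activated site.

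Total counts ran from 19850220 to 24760814 per library, and 3 counts, the upper limit that a count of 0 allows, corresponded to 0.117 to 0.145 CPM with counting error alone. CPM is the count scaled to a common effective library size. It is not divided by gene length, so levels are compared between libraries and not between genes. Yap1 itself was at 22.3 to 24.3 CPM in naive and at 58.5 to 121.5 in the tumours. Neuron markers (8 genes) summed to 6129 to 9140 CPM in naive cortex, as its source label says although its tissue label names a tumour, and to 519.1 to 1184 in YAP1-MAMLD1-dR3R1, to 3472 to 5307 in tumours of YAP1-FAM118B and to 97.1 to 901.7 in tumours of YAP1-TFE3. Naive replicate 2 and YAP1-FAM118B replicate 2 each held both the X-inactivation RNA Xist (25.6 and 162 CPM) and the Y-linked Ddx3y (49.4 and 29.9 CPM), so member counts that moved by over 1.5 times without both are given beside the results. Without both the members called higher than naive numbered 38, 14 and 37. Xist was at 0.041, 25.6 and 304.7 CPM in naive, 492.6, 0 and 0.044 in YAP1-MAMLD1-dR3R1, 320, 162 and 0 in YAP1-FAM118B and 0.434, 0.177 and 0 in YAP1-TFE3. Ddx3y was at 62.85, 49.4 and 0.044 CPM, 0, 75.5 and 85.9, 0, 29.9 and 81.6, and 69.8, 68.9 and 87.8 in the same order. Naive, YAP1-MAMLD1-dR3R1 and YAP1-FAM118B thus each held libraries of more than 1 animal, and sex was not balanced over the groups. Its part in the results was not tested. Differences are log2 fold changes with their standard error, from edgeR's quasi-likelihood test over all 12 libraries, and a gene passed at a Benjamini-Hochberg adjusted p under 0.05. Where 3 values stand together without group names, they are for YAP1-MAMLD1-dR3R1, then YAP1-FAM118B, then YAP1-TFE3.

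Interferon-stimulated genes were higher in every kind of tumour than in naive cortex. All 38 passed in YAP1-MAMLD1-dR3R1, where 34.4% of all genes tested were called higher, and all 38 in YAP1-TFE3, where 40.6% were. In YAP1-FAM118B 34 of 38 passed against 21.3% of all genes. None was lower in any fusion, where 28.8%, 8.45% and 30% of all genes were. The median log2 fold change of the members was 5.45, 3.03 and 4.07, beside 0.06, −0.05 and 0.23 over all genes tested. For all 38, every one of the 9 tumour libraries lay above every naive library, which held for 24.2% of all genes. In each fusion by itself the libraries lay above naive for 38 of 38, against 38%, 29.7% and 42.5% of all genes, and below it for none, against 34.9%, 27.1% and 33.2%. The 34 members that passed in YAP1-FAM118B passed in each of the 3 fusions, as 18.6% of all genes did. The 3 comparisons share the naive libraries. The 4 that did not pass in YAP1-FAM118B passed in a fit of that group and naive alone: Stat2 (edgeR adjusted p = 0.0253), Ifit3 (0.0311), Gbp5 (0.0232) and Igtp (0.00703). DESeq2 passed 3 of them, Ifit3 (DESeq2 adjusted p = 0.0278), Gbp5 (0.0185) and Igtp (0.00739). The count in YAP1-FAM118B fell to 22, 21 and 22 without naive replicates 1, 2 and 3 in turn, to 21 without YAP1-FAM118B replicate 1, and to 14 without both libraries that held Xist and Ddx3y. Without both, the median log2 fold change of all 38 was 2.99, beside 3.03 with all libraries. By role, the 14 that passed without both were 2 of 4 sensors, 2 of 4 transcription factors, 3 of 9 RNA-binding effectors and 2 of 5 effectors of entry and release. They also held 3 of 3 genes of the ISG15 system and 2 of 5 other members, but no guanylate-binding protein or immunity-related GTPase. In these bulk samples a higher level per cell and a larger share of responding cells cannot be told apart.

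**Figure D1:**
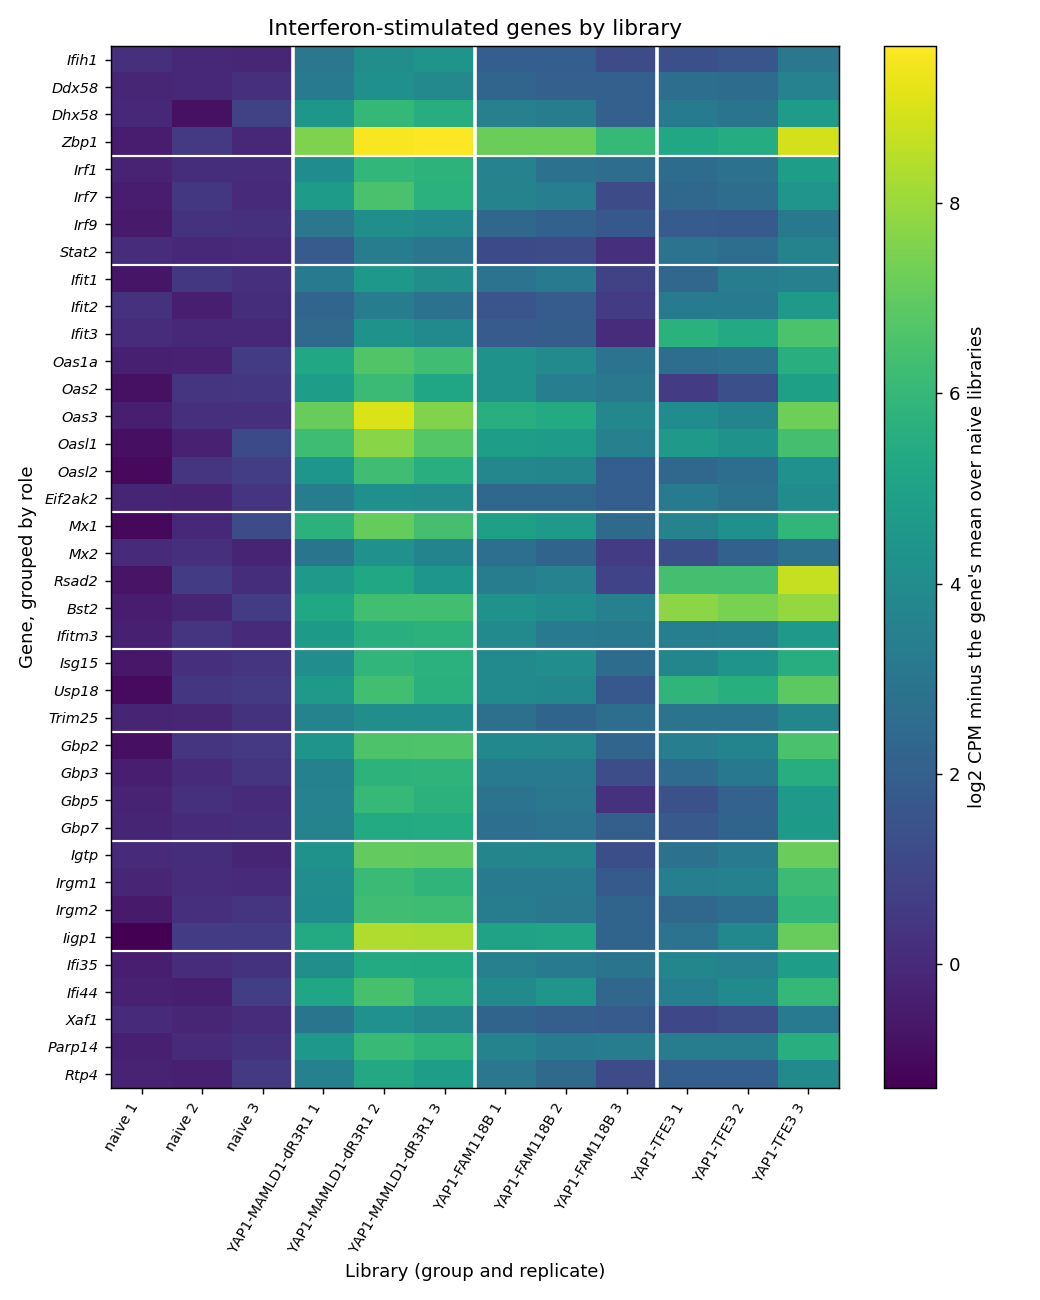
Each row is 1 of the 38 genes, grouped by role between white lines, and each column 1 library; colour is log2 CPM minus the gene's mean over the naive libraries, on the full range of the data. All 9 tumour libraries are brighter than the naive ones in every row, YAP1-MAMLD1-dR3R1 replicates 2 and 3 are bright in most rows, and YAP1-TFE3 replicate 3 is the brightest YAP1-TFE3 library in all 38.

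The 4 sensors of foreign nucleic acid rose in all 3 fusions. Zbp1, which binds nucleic acid in the Z form and can start necroptosis, was barely expressed in naive cortex. Its libraries 1 to 3 stood at 0.0821, 0.251 and 0.132 CPM in naive libraries, 42.9, 173 and 188 in those of YAP1-MAMLD1-dR3R1, 34, 34.3 and 15 in those of YAP1-FAM118B and 8.92, 10.3 and 115 in those of YAP1-TFE3. Its log2 fold changes were 9.71 ± 1.42, 7.43 ± 1.34 and 8.12 ± 1.36 (SE), with edgeR adjusted p of 0.00026, 0.0025 and 0.000447. Ddx58, the RIG-I helicase that recognises uncapped viral RNA, had 5.42, 5.57 and 6.78 CPM in naive libraries, 56.8, 109 and 87.3 in those of YAP1-MAMLD1-dR3R1, 28.6, 24.6 and 25.1 in those of YAP1-FAM118B and 37.4, 35 and 70.7 in those of YAP1-TFE3. Its libraries were close together within YAP1-FAM118B and its changes were 3.83 ± 0.33, 2.14 ± 0.31 and 3.01 ± 0.32, with edgeR adjusted p of 1.51e-05, 0.000659 and 2.43e-05. Ifih1, the MDA5 helicase for long double-stranded RNA, had 7.1, 5.91 and 5.72 CPM in naive libraries, 52.1, 107 and 129 in those of YAP1-MAMLD1-dR3R1, 24.4, 24.8 and 14.8 in those of YAP1-FAM118B and 16.3, 19.4 and 52.4 in those of YAP1-TFE3. The call of Ifih1 in YAP1-FAM118B (edgeR adjusted p = 0.0187) ended without naive replicate 2 (0.0616), naive replicate 3 (0.0632) or YAP1-FAM118B replicate 1 (0.0591). Dhx58, the regulatory helicase LGP2, rose by 5.4 ± 0.74, 3.02 ± 0.68 and 3.77 ± 0.70.

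Of the 4 interferon transcription factors all passed in YAP1-MAMLD1-dR3R1 and YAP1-TFE3, and all but Stat2 in YAP1-FAM118B. Stat2, a partner of IRF9 in the complex that binds the response element, had 22.9, 20.1 and 21.9 CPM in naive libraries, 77.1, 216 and 172 in those of YAP1-MAMLD1-dR3R1, 49, 49.5 and 24.6 in those of YAP1-FAM118B and 158, 138 and 266 in those of YAP1-TFE3. YAP1-FAM118B replicate 3 was nearly at the naive level, and the fold change in that group, 0.92 ± 0.40, had an edgeR adjusted p of 0.106. In YAP1-MAMLD1-dR3R1 and YAP1-TFE3 Stat2 rose by 2.84 ± 0.42 and 3.11 ± 0.43 (edgeR adjusted p = 0.000282 and 0.000122). Irf1, an early target of interferon gamma whose window held only the gamma-activated site, had 4.6, 5.78 and 5.67 CPM in naive libraries, 87.3, 331 and 297 in those of YAP1-MAMLD1-dR3R1, 62.8, 38.7 and 33.2 in those of YAP1-FAM118B and 32.1, 37.1 and 153 in those of YAP1-TFE3. The YAP1-MAMLD1-dR3R1 libraries all lay above those of YAP1-FAM118B, while YAP1-TFE3 overlapped with both. Irf7, which amplifies type I interferon genes, had 2.46, 4.69 and 3.39 CPM in naive libraries, 90.9, 319 and 179 in those of YAP1-MAMLD1-dR3R1, 42.4, 36.4 and 8.21 in those of YAP1-FAM118B and 18, 21 and 73.2 in those of YAP1-TFE3. It rose by 5.8 ± 0.86, 3.04 ± 0.77 and 3.41 ± 0.78 with edgeR adjusted p of 0.000286, 0.0144 and 0.00289, and the call in YAP1-FAM118B ended without naive replicate 1 (0.0539) or 3 (0.0514). Irf9, the DNA-binding subunit of the STAT complex, rose by 3.76 ± 0.45, 2.06 ± 0.42 and 2.39 ± 0.43.

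Among the 9 RNA-binding effectors, 9, 8 and 9 passed. The IFIT proteins bind foreign RNA and block its translation. Ifit3, which stabilises IFIT1 on its target, had 10.6, 9.93 and 9.81 CPM in naive libraries, 56.9, 204 and 153 in those of YAP1-MAMLD1-dR3R1, 36.4, 38.2 and 10.7 in those of YAP1-FAM118B and 520, 432 and 959.7 in those of YAP1-TFE3. All YAP1-TFE3 libraries were above all others, and YAP1-FAM118B replicate 3 was within 1 CPM of every naive library. Ifit3 rose by 3.77 ± 0.60 in YAP1-MAMLD1-dR3R1 and 5.98 ± 0.66 in YAP1-TFE3 (edgeR adjusted p = 0.00042 and 3.25e-05), and was at 1.49 ± 0.55 in YAP1-FAM118B (adjusted p = 0.0653, or 0.025 without YAP1-FAM118B replicate 3). Ifit3b is a near-identical copy, so reads of these genes could have been split between them. Ifit2 had 18.8, 12.1 and 17.2 CPM in naive libraries, 75.5, 158 and 113 in those of YAP1-MAMLD1-dR3R1, 47.6, 57.6 and 24.1 in those of YAP1-FAM118B and 143, 146 and 389 in those of YAP1-TFE3. In YAP1-FAM118B the call of Ifit2 (edgeR adjusted p = 0.0426) ended without any of naive replicates 1, 2 and 3 (0.0681, 0.131 and 0.0932) or YAP1-FAM118B replicates 1 and 2 (0.111 and 0.106). Ifit1 was highest in YAP1-MAMLD1-dR3R1 (67.4 ± 28.1 CPM, mean ± SD, n = 3), with 24.9 ± 16 in tumours of YAP1-FAM118B and 34.5 ± 12.7 in those of YAP1-TFE3.

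The oligoadenylate synthetases make a messenger that activates RNase L. Oasl2, a family member with ubiquitin-like domains, had 1.76, 4.65 and 5.98 CPM in naive libraries, 82.7, 296 and 178 in those of YAP1-MAMLD1-dR3R1, 51, 49.5 and 14.7 in those of YAP1-FAM118B and 19.5, 23.3 and 70.7 in those of YAP1-TFE3. It was higher in every YAP1-MAMLD1-dR3R1 library than in any other, and rose against naive by 5.49 ± 0.82, 3.22 ± 0.75 and 3.19 ± 0.75 (edgeR adjusted p of 0.000303, 0.00975 and 0.0033). Oas3 had 2 counts over the 3 naive libraries, so its change is given as a ratio of scaled counts with a 95% counting interval: 1100 (304 to 9085) in YAP1-MAMLD1-dR3R1, 139.7 (38.3 to 1159) in tumours of YAP1-FAM118B and 235.9 (64.9 to 1954) in YAP1-TFE3. The intervals pool the reads of a group and leave out the spread between its libraries. Oas2 was at 0.723, 1.24 and 15.7 CPM in YAP1-TFE3 beside 10.1, 5.25 and 4.29 in YAP1-FAM118B, and Oas1a, which has close copies such as Oas1g, was at 3.86, 4.39 and 30 beside 12.4, 9.61 and 4.43. In both genes YAP1-TFE3 replicates 1 and 2 did not exceed the lowest YAP1-FAM118B library. Oasl1 rose by 7.62 ± 1.07, 5.01 ± 1.01 and 6.02 ± 1.03. Eif2ak2, the PKR kinase that halts translation when it meets double-stranded RNA, had 6.61, 6.33 and 9.59 CPM in naive libraries, 75.9, 137 and 123 in those of YAP1-MAMLD1-dR3R1, 38.8, 39.5 and 29.1 in those of YAP1-FAM118B and 67.1, 53.6 and 122 in those of YAP1-TFE3. Its changes of 3.9 ± 0.36, 2.25 ± 0.34 and 3.43 ± 0.36 had edgeR adjusted p of 2.17e-05, 0.000917 and 2.28e-05, and YAP1-FAM118B lay below both other fusions in every library.

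All 5 effectors of virus entry, assembly and release rose in the 3 fusions, and Bst2 separated all 4 groups. Bst2, or tetherin, holds budding virus particles at the cell surface. Its libraries 1 to 3 stood at 3.04, 3.64 and 6.2 CPM in naive libraries, 163, 343 and 339 in those of YAP1-MAMLD1-dR3R1, 80.9, 67.8 and 46.9 in those of YAP1-FAM118B and 913, 732 and 1009 in those of YAP1-TFE3. The 4 groups did not overlap at all, in the order YAP1-TFE3, YAP1-MAMLD1-dR3R1, YAP1-FAM118B and naive, with means of 885 ± 141, 282 ± 103, 65.2 ± 17.1 and 4.29 ± 1.68 CPM (SD, n = 3). Its fold changes against naive were 6.04 ± 0.43, 3.92 ± 0.39 and 7.69 ± 0.46 (edgeR adjusted p = 6.37e-06, 8.32e-05 and 1.05e-06). Rsad2, or viperin, which makes a chain-terminating nucleotide, had 0.452, 1.26 and 0.88 CPM in naive libraries, 21.1, 32.6 and 19.5 in those of YAP1-MAMLD1-dR3R1, 8.87, 10.3 and 1.57 in those of YAP1-FAM118B and 76.4, 74.3 and 370.4 in those of YAP1-TFE3. Every YAP1-TFE3 library exceeded every other library, and YAP1-FAM118B replicate 3 was barely above naive. Rsad2 rose by 4.81 ± 0.90, 3.0 ± 0.85 and 7.65 ± 1.0, with edgeR adjusted p of 0.00111, 0.0246 and 9.04e-05. The call in YAP1-FAM118B ended without any of naive replicates 1, 2 and 3 (0.0796, 0.0511 and 0.0719) or YAP1-FAM118B replicates 1 and 2 (0.0697 and 0.0555).

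Ifitm3, which blocks the fusion of virus with endosomes, had 5.34, 8.5 and 6.64 CPM in naive libraries, 172, 334 and 359 in those of YAP1-MAMLD1-dR3R1, 102, 64.5 and 59.3 in those of YAP1-FAM118B and 71.8, 76.5 and 168 in those of YAP1-TFE3. YAP1-MAMLD1-dR3R1 was highest, and the changes were 5.4 ± 0.47, 3.46 ± 0.43 and 3.95 ± 0.44 (edgeR adjusted p = 1.68e-05, 0.000298 and 3.54e-05). The dynamin-like GTPases Mx1 and Mx2, which trap viral nucleocapsids, rose by 6.64 ± 1.05, 4.42 ± 0.98 and 5.03 ± 1.0 and by 3.87 ± 0.63, 2.2 ± 0.60 and 2.31 ± 0.60. Both were lowest in naive, with means of 0.245 and 0.619 CPM, and highest in YAP1-MAMLD1-dR3R1, with 24.7 and 9.12.

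**Figure D2:**
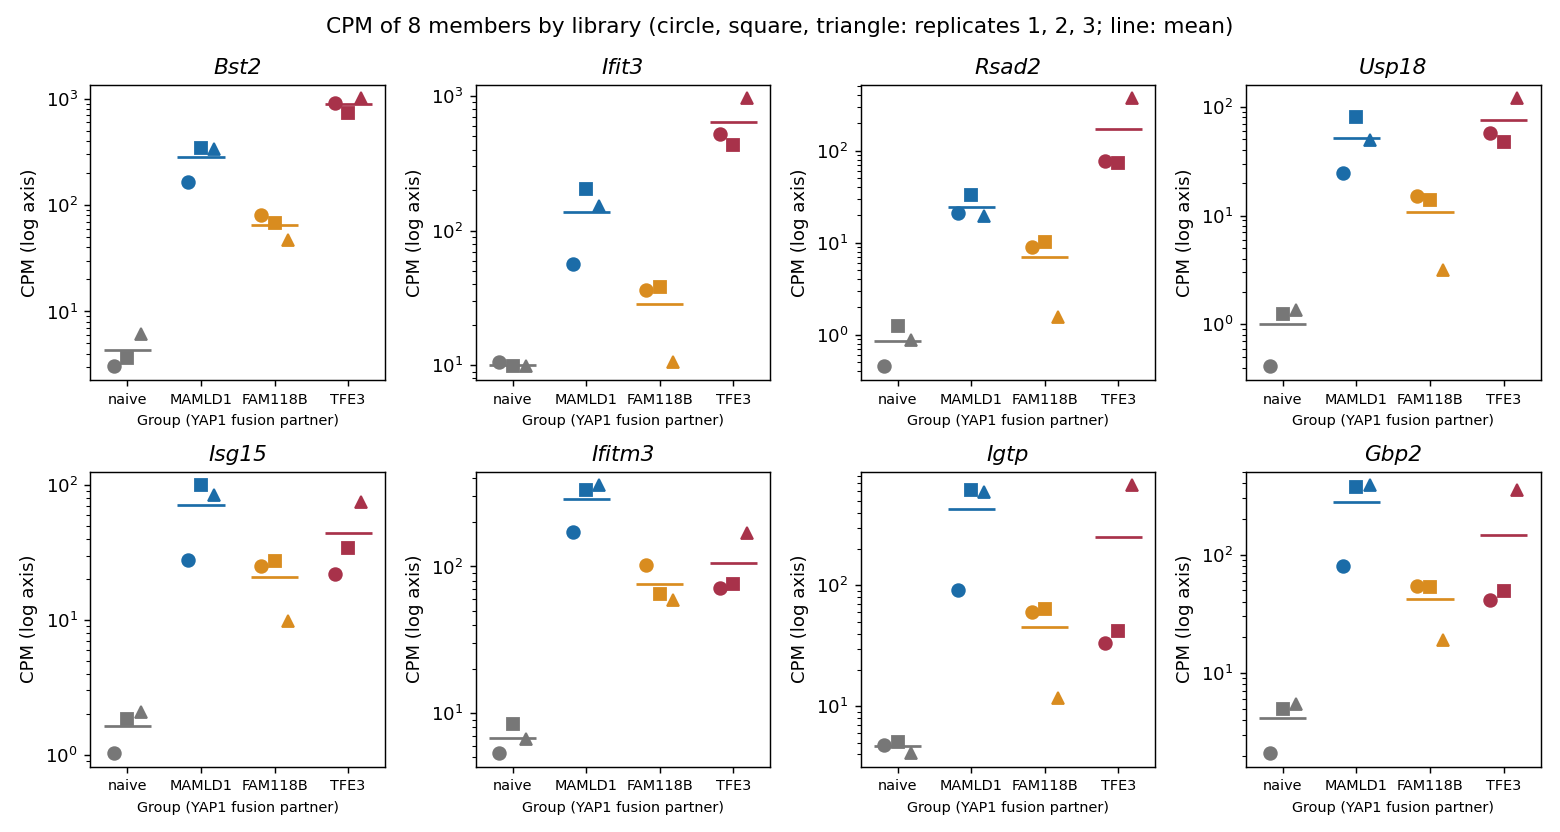
CPM on a log axis for 8 members by group, with a circle, square and triangle for replicates 1, 2 and 3 and a line at the group mean. In Bst2, Ifit3 and Rsad2 all 3 YAP1-TFE3 libraries lie above all others, whereas in Igtp and Gbp2 YAP1-TFE3 replicate 3 stands far above replicates 1 and 2.

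The 3 genes of the ISG15 system rose in all 3 fusions. Isg15, the ubiquitin-like modifier itself, had 1.03, 1.84 and 2.07 CPM in naive libraries, 27.8, 100.3 and 85.3 in those of YAP1-MAMLD1-dR3R1, 25.3, 27.5 and 9.83 in those of YAP1-FAM118B and 21.8, 34.5 and 75.5 in those of YAP1-TFE3. Its levels in YAP1-FAM118B and YAP1-TFE3 overlapped, and its changes were 5.43 ± 0.71, 3.66 ± 0.66 and 4.74 ± 0.69 (edgeR adjusted p = 0.000136, 0.00257 and 0.000188). Usp18, the protease that removes ISG15 and restrains the type I receptor, had 0.41, 1.26 and 1.36 CPM in naive libraries, 24.5, 79.5 and 49.9 in those of YAP1-MAMLD1-dR3R1, 15, 13.9 and 3.18 in those of YAP1-FAM118B and 57.8, 47.5 and 119 in those of YAP1-TFE3. YAP1-TFE3 and YAP1-MAMLD1-dR3R1 overlapped in Usp18 and YAP1-FAM118B lay below both. It rose by 5.66 ± 0.79, 3.4 ± 0.73 and 6.21 ± 0.81, with edgeR adjusted p of 0.000193, 0.00648 and 8.87e-05. Trim25, a ubiquitin ligase that activates RIG-I, had 6.53, 6.79 and 9.11 CPM in naive libraries, 89.5, 129.5 and 126 in those of YAP1-MAMLD1-dR3R1, 49.6, 34.7 and 46.6 in those of YAP1-FAM118B and 56.9, 56.9 and 99 in those of YAP1-TFE3. YAP1-FAM118B lay below the other fusions, which overlapped, and its changes of 3.94 ± 0.29, 2.55 ± 0.27 and 3.25 ± 0.28 had edgeR adjusted p of 7.15e-06, 0.000123 and 7.71e-06.

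Guanylate-binding proteins, large GTPases that coat pathogen vacuoles and are classic targets of interferon gamma, passed for 4, 3 and 4 of the 4 members. Gbp2 had 2.09, 4.94 and 5.46 CPM in naive libraries, 79.9, 376 and 387 in those of YAP1-MAMLD1-dR3R1, 54.8, 52.9 and 19.1 in those of YAP1-FAM118B and 41.2, 49 and 353 in those of YAP1-TFE3. YAP1-TFE3 replicate 3 stood near YAP1-MAMLD1-dR3R1 replicates 2 and 3, while YAP1-TFE3 replicates 1 and 2 lay within the range of YAP1-FAM118B. The changes of Gbp2 were 6.07 ± 1.08, 3.34 ± 0.96 and 5.15 ± 1.04 (edgeR adjusted p = 0.00085, 0.0256 and 0.00138). Gbp3 had 4.43, 5.95 and 7.3 CPM in naive libraries, 66.3, 320.3 and 329 in those of YAP1-MAMLD1-dR3R1, 51.9, 53 and 14.2 in those of YAP1-FAM118B and 33.3, 51.4 and 269 in those of YAP1-TFE3, and Gbp7 had 6.77, 8.0 and 8.58 CPM in naive libraries, 94.8, 329 and 341 in those of YAP1-MAMLD1-dR3R1, 50.1, 57.5 and 31.1 in those of YAP1-FAM118B and 26.3, 36.5 and 199 in those of YAP1-TFE3. In both genes YAP1-MAMLD1-dR3R1 replicate 1 was the lowest of its group and YAP1-TFE3 replicate 3 the highest of its own. Gbp5, which promotes inflammasome assembly, had 1.81, 2.43 and 2.2 CPM in naive libraries, 26.1, 146 and 119.6 in those of YAP1-MAMLD1-dR3R1, 16, 18.5 and 2.54 in those of YAP1-FAM118B and 5.74, 9.8 and 53.5 in those of YAP1-TFE3. It rose by 5.5 ± 1.11 and 3.42 ± 1.02 in YAP1-MAMLD1-dR3R1 and YAP1-TFE3 (edgeR adjusted p = 0.00183 and 0.0123), and was at 2.52 ± 0.99 in YAP1-FAM118B (edgeR adjusted p = 0.0812). Its call in YAP1-TFE3 ended without naive replicate 1 (0.0523) or YAP1-TFE3 replicate 3 (0.094). In YAP1-FAM118B the calls of Gbp2, Gbp3 and Gbp7 each ended without any 1 of the 3 naive libraries or YAP1-FAM118B replicate 1, with edgeR adjusted p between 0.0628 and 0.118, and those of Gbp3 and Gbp7 also without YAP1-FAM118B replicate 2 (0.079 and 0.0548).

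Immunity-related GTPases, the small relatives that act on vacuoles and autophagy, passed for 4, 3 and 4 of the 4 members and differed widely between libraries of a group. Igtp, also called Irgm3, had 4.8, 5.11 and 4.09 CPM in naive libraries, 90.9, 614 and 589.6 in those of YAP1-MAMLD1-dR3R1, 60, 63.4 and 11.6 in those of YAP1-FAM118B and 33.5, 41.9 and 676 in those of YAP1-TFE3. The highest YAP1-TFE3 library of Igtp exceeded every YAP1-MAMLD1-dR3R1 library and the other YAP1-TFE3 libraries lay below every one. Igtp rose by 6.53 ± 1.41 in YAP1-MAMLD1-dR3R1 and 5.74 ± 1.36 in YAP1-TFE3 (edgeR adjusted p = 0.0027 and 0.00363), and was at 3.27 ± 1.22 in YAP1-FAM118B (edgeR adjusted p = 0.0687). Irgm1, which regulates other GTPases of the family, had 8.54, 9.97 and 9.41 CPM in naive libraries, 159, 664 and 549.9 in those of YAP1-MAMLD1-dR3R1, 86.2, 83.2 and 32.6 in those of YAP1-FAM118B and 100, 107 and 686 in those of YAP1-TFE3. Every YAP1-TFE3 library of Irgm1 exceeded every YAP1-FAM118B library. Iigp1, an effector that pries open vacuoles, had 0.657, 2.81 and 2.82 CPM in naive libraries, 76.7, 593 and 584 in those of YAP1-MAMLD1-dR3R1, 58.9, 62.7 and 8.49 in those of YAP1-FAM118B and 13.6, 25.6 and 256 in those of YAP1-TFE3. Its change was largest in YAP1-MAMLD1-dR3R1 at 7.64 ± 1.55 (edgeR adjusted p = 0.00184). Irgm2, whose window resembles that of Igtp, rose by 5.8 ± 1.1, 2.94 ± 0.97 and 4.6 ± 1.05. In YAP1-FAM118B the calls of Irgm1 (0.0252) and Iigp1 (0.0344) ended without any 1 naive library or YAP1-FAM118B replicate 1, with edgeR adjusted p between 0.0714 and 0.105, and that of Iigp1 also without YAP1-FAM118B replicate 2 (0.0596).

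The other 5 members rose in all 3 fusions. Xaf1, a pro-apoptotic antagonist of XIAP, had 16.1, 14.4 and 16.7 CPM in naive libraries, 121, 302 and 231 in those of YAP1-MAMLD1-dR3R1, 72.7, 63.7 and 57 in those of YAP1-FAM118B and 33, 38.7 and 142 in those of YAP1-TFE3. Naive cortex held it at a steady level, and YAP1-TFE3 replicates 1 and 2 lay below every YAP1-FAM118B library. Parp14, which attaches single ADP-ribose units to proteins, had 2.96, 3.85 and 4.71 CPM in naive libraries, 90.4, 258 and 210.3 in those of YAP1-MAMLD1-dR3R1, 46.2, 36.6 and 37.7 in those of YAP1-FAM118B and 39.4, 37.7 and 184 in those of YAP1-TFE3, and Ifi35, a partner of NMI, had 1.31, 1.84 and 2.11 CPM in naive libraries, 31.1, 75.1 and 74.6 in those of YAP1-MAMLD1-dR3R1, 19.8, 16.2 and 13.4 in those of YAP1-FAM118B and 24, 21.1 and 51.4 in those of YAP1-TFE3. Parp14 and Ifi35 were higher in every YAP1-MAMLD1-dR3R1 library than in any YAP1-FAM118B library. Ifi35 rose by 5.1 ± 0.49, 3.22 ± 0.45 and 4.19 ± 0.47 (edgeR adjusted p = 2.36e-05, 0.000555 and 3.4e-05) and Parp14 by 5.6 ± 0.72, 3.39 ± 0.65 and 4.5 ± 0.68 (0.000118, 0.0036 and 0.000237 as edgeR adjusted p). Xaf1 rose by 3.79 ± 0.57, 2.04 ± 0.53 and 2.18 ± 0.53, and its call in YAP1-FAM118B (edgeR adjusted p = 0.0164) ended without naive replicate 2 (0.0583) or YAP1-FAM118B replicate 1 (0.0501). Ifi44 rose by 6.0 ± 0.91, 3.87 ± 0.85 and 5.01 ± 0.88 and Rtp4, a chaperone of receptors, by 4.72 ± 0.76, 2.43 ± 0.70 and 2.9 ± 0.71.

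**Figure D3:**
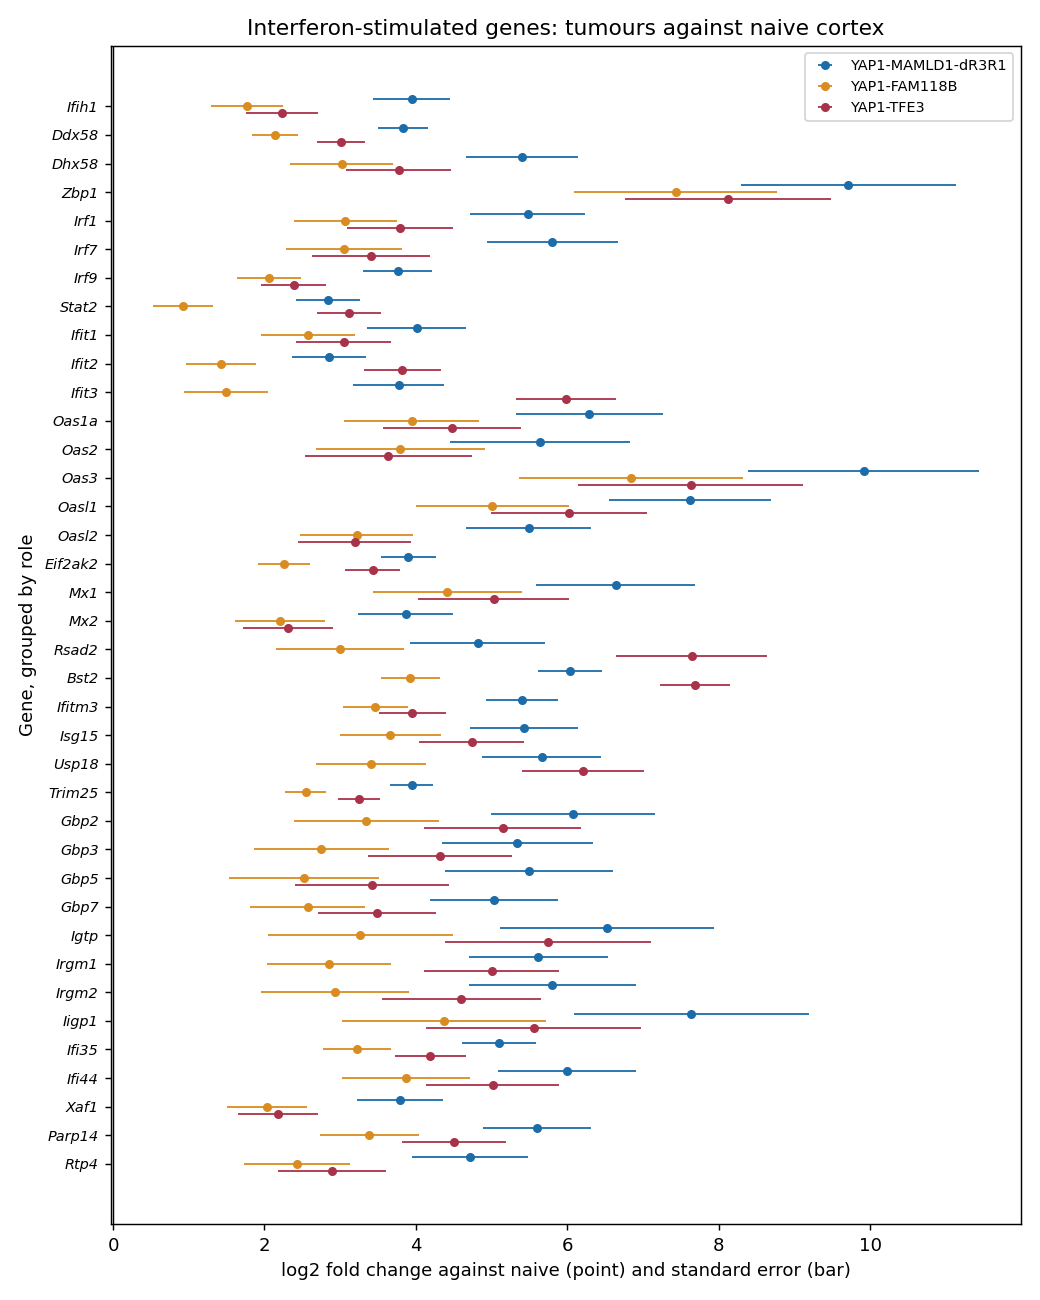
Log2 fold change of each member against naive, as a point with its standard error, for the 3 fusions. Every point lies to the right of 0, with medians of 5.45, 3.03 and 4.07; the YAP1-TFE3 points of Bst2, Ifit3 and Rsad2 lie to the right of the other fusions.

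The fusions differed in the size of the response. The mean over libraries was highest in YAP1-MAMLD1-dR3R1 for 32 members and in YAP1-TFE3 for the other 6, Stat2, Ifit2, Ifit3, Rsad2, Bst2 and Usp18, and naive was lowest for all 38. Below YAP1-MAMLD1-dR3R1 came YAP1-TFE3 and then YAP1-FAM118B, except for Oas2 and Oasl2, in which the last groups changed places. Whether neighbours in this order differed is given by the tests between fusions.

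YAP1-FAM118B tumours held less of these transcripts than YAP1-MAMLD1-dR3R1 tumours. Of 38 members 24 were lower and none higher, where 13.5% of all genes were called lower and 12.7% higher, and the median difference was −2.24 on the log2 scale beside −0.05 over all genes. For all 38 members every YAP1-FAM118B library lay below every YAP1-MAMLD1-dR3R1 library, as for 25.0% of all genes, and none had them above, as 23.7% did. The smallest adjusted p belonged to Bst2, at −2.11 ± 0.36 (edgeR adjusted p = 0.00678), Ddx58, at −1.69 ± 0.30 (0.00752), Trim25, at −1.4 ± 0.26 (0.00832), Eif2ak2, at −1.64 ± 0.33 (0.0105), and Ifitm3, at −1.93 ± 0.40 (0.0116). Ddx58 and Eif2ak2 recognise viral RNA, and the other 3 act on virus particles or on RIG-I. Igtp and Iigp1 had the largest differences, −3.26 ± 1.21 and −3.27 ± 1.25, but did not pass (edgeR adjusted p = 0.069 and 0.0758). By role, 3 of 4 sensors, 4 of 4 transcription factors, 6 of 9 RNA-binding effectors, 2 of 5 effectors of entry and release, 2 of 3 genes of the ISG15 system, 2 of 4 guanylate-binding proteins, 1 of 4 immunity-related GTPases and 4 of 5 other members were lower. Without both libraries that held Xist and Ddx3y, only 1 sensor and 1 effector of entry and release were lower. The count of 24 fell to 7 and 8 without YAP1-MAMLD1-dR3R1 replicates 2 and 3 and to 10, 9 and 9 without YAP1-FAM118B replicates 1, 2 and 3. It was 2 without both libraries that held Xist and Ddx3y, 0 when tested against 2-fold and 32 without YAP1-MAMLD1-dR3R1 replicate 1. The median difference of the members was −2.35 without both libraries that held Xist and Ddx3y, beside −2.24 with all libraries. The summed neuron markers were higher in every YAP1-FAM118B library than in any library of the other fusions, and their part in these differences was not tested.

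YAP1-TFE3 tumours differed from YAP1-MAMLD1-dR3R1 tumours in both directions. Bst2, Ifit3 and Rsad2 were higher, 3 of 38, and 8 of 38 were lower, where 22.6% of all genes were called higher and 16.9% lower. The share of members higher was thus below that of all genes, and the share lower was near it. Bst2 was higher by 1.65 ± 0.35 (edgeR adjusted p = 0.00471), Ifit3 by 2.21 ± 0.56 (0.0108) and Rsad2 by 2.83 ± 0.78 (0.0163). In these 3 the libraries did not overlap, as in 27.0% of all genes, and no other member had all YAP1-TFE3 libraries above all YAP1-MAMLD1-dR3R1 libraries. The lower members were the sensors Ifih1 (−1.71 ± 0.47, edgeR adjusted p = 0.0155) and Ddx58 (−0.82 ± 0.29, 0.0471), the factors Irf7 (−2.39 ± 0.73, 0.0263) and Irf9 (−1.37 ± 0.41, 0.0237), Oasl2 (−2.29 ± 0.71, 0.0271), Mx2 (−1.56 ± 0.56, 0.0497), Ifitm3 (−1.45 ± 0.40, 0.0163) and Xaf1 (−1.62 ± 0.52, 0.0319). Libraries of Irf7, Oasl2, Mx2 and Ifitm3 did not overlap, 4 of 38 against 21.1% of all genes. In both directions the members without overlap were a smaller share than among all genes. DESeq2 gave 3 higher and 19 lower.

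The call of Rsad2 in YAP1-TFE3 against YAP1-MAMLD1-dR3R1 ended without YAP1-MAMLD1-dR3R1 replicate 1 (edgeR adjusted p = 0.0512) or 3 (0.0618) or YAP1-TFE3 replicate 3 (0.0814), while Bst2 and Ifit3 passed without any 1 library. All 3 failed a test against 2-fold (0.102 for Bst2, 0.0832 for Ifit3 and 0.0856 for Rsad2). The count of lower members was 13 and 3 without YAP1-MAMLD1-dR3R1 replicates 1 and 2, and 3, 4 and 30 without YAP1-TFE3 replicates 1, 2 and 3. Without YAP1-TFE3 replicate 3 the median difference of the members moved from −1.29 to −2.53.

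Against YAP1-FAM118B, 10 of 38 members were higher in YAP1-TFE3 and none lower, where 28% of all genes were called higher and 23.7% lower, and the median difference was 0.91 beside 0.08 over all genes. The share of members higher was thus not above that of all genes. Leading them were Bst2 at 3.76 ± 0.38 (edgeR adjusted p = 6.12e-05), Ifit3 at 4.49 ± 0.62 (0.000321), Rsad2 at 4.65 ± 0.85 (0.00154), Stat2 at 2.19 ± 0.41 (0.00174) and Ifit2 at 2.39 ± 0.48 (0.00246). These 5 kept their calls without any 1 library and against 2-fold. Usp18 (2.8 ± 0.67), Irgm1 (2.15 ± 0.79), Eif2ak2 (1.17 ± 0.33), Ddx58 (0.87 ± 0.29) and Trim25 (0.70 ± 0.26) completed the 10. The libraries did not overlap for 11 members, these and Ifi35, a share not above the 31.4% of all genes, and none had all YAP1-TFE3 libraries lower, against 26.9%. Without YAP1-TFE3 replicate 3 the comparison gave 6 higher and 3 lower and the median difference was −0.27.

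**Figure D4:**
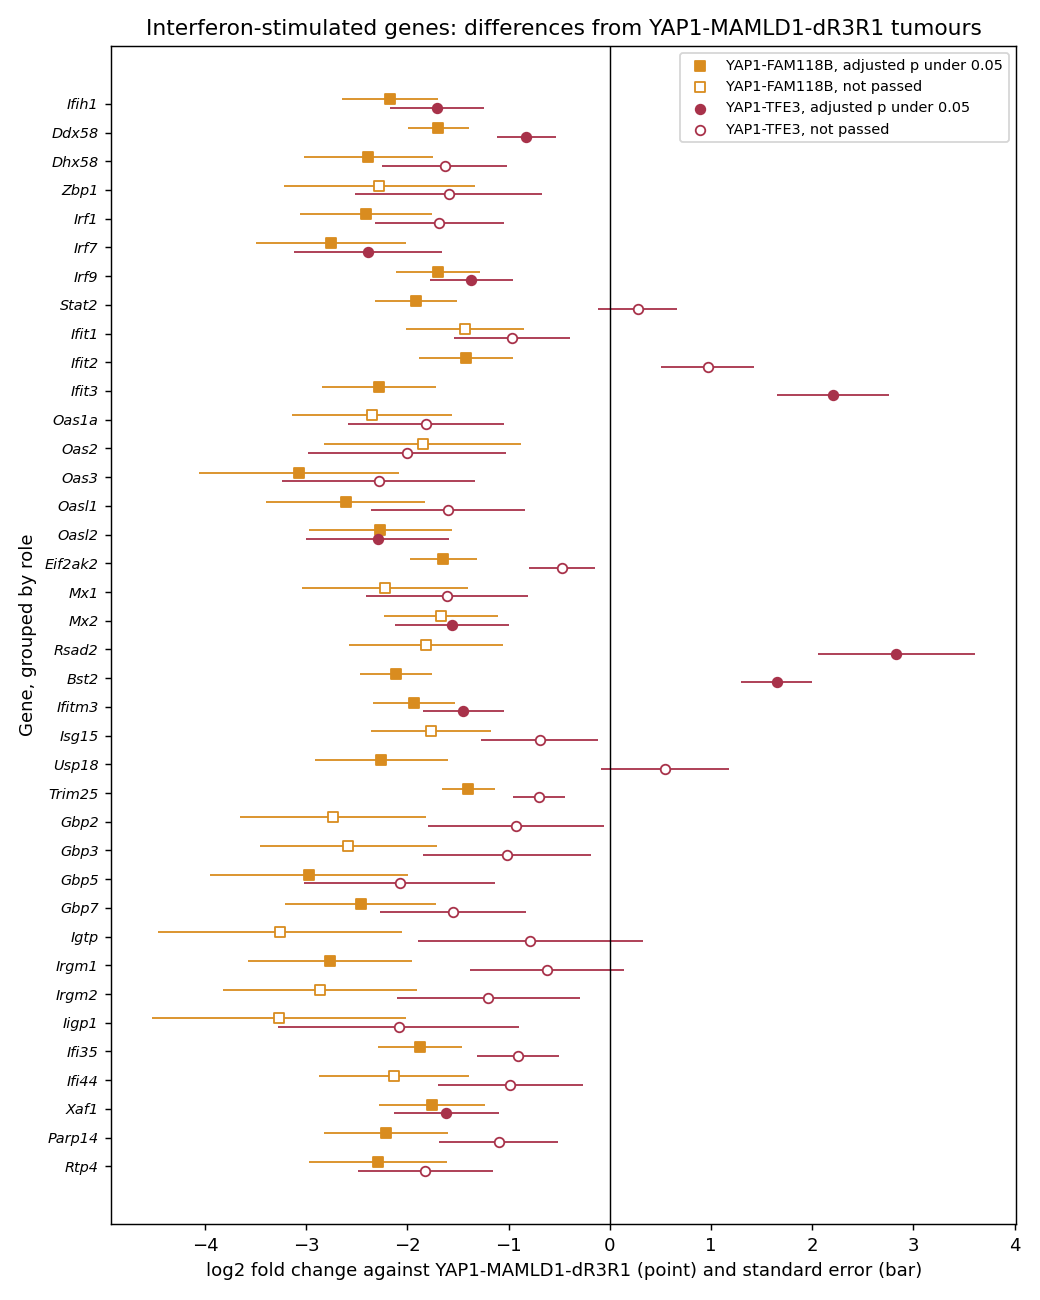
Log2 fold change of each member in the other fusions, relative to YAP1-MAMLD1-dR3R1, with standard errors; filled symbols have an adjusted p under 0.05. All 38 YAP1-FAM118B points lie to the left of 0 and 24 are filled, whereas the filled YAP1-TFE3 points lie on both sides, with Bst2, Ifit3 and Rsad2 to the right.

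Libraries of a group ranked alike across members. YAP1-TFE3 replicate 3 was the highest of its group for 38 of 38, YAP1-MAMLD1-dR3R1 replicate 1 the lowest of its group for 37, YAP1-MAMLD1-dR3R1 replicate 2 the highest for 32 and YAP1-FAM118B replicate 3 the lowest for 35. These counts describe correlated genes in shared libraries and carry no test. YAP1-MAMLD1-dR3R1 replicate 1 held Xist without Ddx3y and YAP1-FAM118B replicate 3 held Ddx3y without Xist, unlike the other libraries of their groups. The part of sex in this order was not tested. The ratio of the highest to the lowest library had a median over members of 1.77 in naive and of 2.80, 2.69 and 4.18 in the tumours. By role, the median in YAP1-TFE3 was 15.6 for the immunity-related GTPases and 8.33 for the guanylate-binding proteins, beside 2.75 for the effectors of entry and release and 2.51 for the ISG15 system. In YAP1-MAMLD1-dR3R1 the same GTPases and guanylate-binding proteins had 5.75 and 4.90, beside 2.10 for entry and release and 3.25 for the ISG15 system. These medians carry no test. Bst2 had the smallest ratio in YAP1-TFE3, 1.38, and Oas2 the largest, 21.7. Compared with the mean of naive, the median member was higher by 2.91, 3.14 and 4.88 on the log2 scale in YAP1-TFE3 replicates 1, 2 and 3. In YAP1-MAMLD1-dR3R1 the values were 4.10, 5.96 and 5.67, and in YAP1-FAM118B they were 3.47, 3.25 and 2.02.

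Of 21 interferon ligand genes counted, Ifng alone passed the filter on low counts. Ifng, which codes for interferon gamma, had 1, 0 and 1 counts in the naive libraries, 7, 109 and 56 in those of YAP1-MAMLD1-dR3R1, 9, 3 and 0 in those of YAP1-FAM118B and 0, 0 and 28 in those of YAP1-TFE3. In YAP1-MAMLD1-dR3R1 replicates 2 and 3 held more Ifng than replicate 1, and in YAP1-TFE3 only replicate 3 held any. Among all 38 members, YAP1-MAMLD1-dR3R1 replicate 1 was the lowest of its group for 37 and YAP1-TFE3 replicate 3 the highest for 38. Whether Ifng had a part in this order was not tested. As ratios of scaled counts to naive, with 95% counting intervals, the groups stood at 88.5 (24.1 to 736.3), 6.10 (1.36 to 56.1) and 15.3 (3.87 to 132.8). These intervals pool the reads of a group and leave out the spread between its libraries, which the edgeR test includes. Ifng passed in YAP1-MAMLD1-dR3R1 (edgeR adjusted p = 0.0212), not in YAP1-FAM118B (0.418) or YAP1-TFE3 (0.127), and the call ended without naive replicate 1, 2 or 3 (0.063, 0.0718 and 0.0585) or YAP1-MAMLD1-dR3R1 replicate 2 (0.0613). Ifnb1, for interferon beta, had no count in naive and 0, 2 and 0 counts in the libraries of YAP1-MAMLD1-dR3R1, 2, 2 and 0 in those of YAP1-FAM118B and 4, 4 and 1 in those of YAP1-TFE3. At such counts no difference in Ifnb1 can be read.

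Receptor genes were also higher in the tumours. Of 6 receptor genes 6, 4 and 6 passed, all higher, where 34.4%, 21.3% and 40.6% of all genes did, and the counts were the same without both libraries that held Xist and Ddx3y. Ifngr1, the ligand-binding chain for interferon gamma, rose by 3.59 ± 0.37, 2.22 ± 0.35 and 2.46 ± 0.35 (edgeR adjusted p = 3.56e-05, 0.00114 and 0.000165), from a mean of 14.3 CPM in naive to 173, 67.1 and 79. Ifnar1, a chain of the type I receptor, rose by 1.31 ± 0.19, 0.86 ± 0.19 and 1.01 ± 0.19 (0.000274, 0.00781 and 0.000986 as edgeR adjusted p), and Ifngr2 by 1.28 ± 0.26 in YAP1-MAMLD1-dR3R1 and 1.75 ± 0.26 in YAP1-TFE3. Ifngr2 was at 0.50 ± 0.25 in YAP1-FAM118B (edgeR adjusted p = 0.157).

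Stat3, which also serves many interleukins, rose by 2.56 ± 0.17, 1.8 ± 0.17 and 1.56 ± 0.17. Its YAP1-TFE3 libraries had 2893, 3528 and 4732 counts in replicates 1 to 3, and the libraries of the other groups lay closer together. Jak1, a kinase of both receptors, was, from naive to YAP1-TFE3, at 226 ± 14.7, 236 ± 17, 246 ± 6.0 and 198 ± 38.4 CPM (mean ± SD, n = 3), and did not pass in any contrast with naive; in YAP1-TFE3 (−0.19 ± 0.14) it passed as lower with other scaling factors or without YAP1-TFE3 replicate 3 (edgeR adjusted p = 0.00859).

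Of 16 sensors and adaptors that act upstream of interferon 14, 14 and 15 were higher and none lower, beside 34.4%, 21.3% and 40.6% of all genes higher. Without both libraries that held Xist and Ddx3y they were 14, 12 and 13. Irf8, a factor of myeloid cells, rose by 6.19 ± 0.83, 3.78 ± 0.75 and 4.82 ± 0.78, with 34.5, 33.4 and 206 CPM in YAP1-TFE3. Tbk1, a kinase that triggers interferon production, lay between 47.5 and 71.8 CPM in all libraries and did not pass. Traf3, an adaptor beside TBK1, passed in YAP1-TFE3 at 0.49 ± 0.16 (edgeR adjusted p = 0.0177). That call ended without naive replicate 1 (0.156) or 2 (0.0658) or YAP1-TFE3 replicate 1, 2 or 3 (0.1, 0.115 and 0.218), and with RLE factors (0.0635) or library size only (0.0923). The signs of Tbk1 in YAP1-MAMLD1-dR3R1 and YAP1-TFE3 and of Jak1 in YAP1-MAMLD1-dR3R1 turned with the scaling.

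Of 9 negative regulators 7, 5 and 6 were higher and 1, 0 and 1 lower, beside 34.4%, 21.3% and 40.6% of all genes higher and 28.8%, 8.45% and 30% lower. Socs3, which inhibits Janus kinases, had 3.2, 3.48 and 2.24 CPM in naive libraries, 195, 201 and 207 in those of YAP1-MAMLD1-dR3R1, 134, 128 and 174 in those of YAP1-FAM118B and 105, 111 and 95.1 in those of YAP1-TFE3. Its libraries stayed close together within each tumour group, and it rose by 6.08 ± 0.21, 5.61 ± 0.21 and 5.12 ± 0.20 (edgeR adjusted p = 3.94e-07, 1.4e-06 and 2.6e-07). Samhd1, which depletes nucleotides needed by retroviruses, rose by 3.81 ± 0.56, 2.36 ± 0.53 and 2.79 ± 0.54. Pias1, a SUMO ligase, was the lower gene in YAP1-TFE3 at −0.49 ± 0.13 (edgeR adjusted p = 0.00719). Adar, the RNA editing enzyme that keeps self RNA from the sensors, was lower in YAP1-MAMLD1-dR3R1 at −0.63 ± 0.24 (edgeR adjusted p = 0.0418). The call of Adar ended without any of naive replicates 1, 2 and 3 (0.063, 0.064 and 0.0889) or YAP1-MAMLD1-dR3R1 replicates 1 and 3 (0.134 and 0.0796).

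A further 30 interferon-stimulated genes outside the 38 were counted, with 28, 22 and 28 higher and none lower, beside 34.4%, 21.3% and 40.6% of all genes higher. The 22 in YAP1-FAM118B became 13 without both libraries that held Xist and Ddx3y, and the others 28 and 27. Lgals3bp, a secreted glycoprotein, rose by 5.3 ± 0.48, 3.04 ± 0.43 and 4.0 ± 0.45, Ifi47, another immunity-related GTPase, by 7.71 ± 1.03, 4.49 ± 0.90 and 5.93 ± 0.95, and Ifi27 by 2.34 ± 0.29, 1.48 ± 0.28 and 2.38 ± 0.29. Ifi47 was at 27, 28.7 and 184 CPM in YAP1-TFE3, with replicate 3 far above the rest as in Igtp. Between fusions 20 of these 30 were lower in YAP1-FAM118B than in YAP1-MAMLD1-dR3R1 and none higher, where 13.5% of all genes were lower. Without both libraries that held Xist and Ddx3y the 20 became 3. In YAP1-TFE3 against YAP1-MAMLD1-dR3R1 1 was higher (Ido1, named after its values were seen) and 8 were lower, where 22.6% and 16.9% of all genes were. In YAP1-TFE3 against YAP1-FAM118B 9 of 30 were higher, near the 28% of all genes that were, and none was lower; without both libraries that held Xist and Ddx3y the 9 became 5.

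Markers of immune cells also differed between the groups, and not every kind followed the order of the members over libraries. Markers of T and NK cells (12 genes counted) summed to 1.5 to 4.56 CPM in naive, where Cd3d, Cd8b1, Nkg7 and Gzmb were at 0, to 18.3, 156.6 and 118.9 in YAP1-MAMLD1-dR3R1 replicates 1 to 3, to 16.1 to 26.6 in YAP1-FAM118B, and to 3.57, 3.33 and 51.9 in YAP1-TFE3 replicates 1 to 3. Cd4, the co-receptor of helper T cells, gave most of these counts in naive and YAP1-FAM118B: 98, 102 and 21 in naive and 406, 406 and 270 in YAP1-FAM118B, beside 141, 441 and 158 in YAP1-MAMLD1-dR3R1 and 10, 9 and 84 in YAP1-TFE3. Without Cd4, a summary chosen after its values were seen, the other 11 markers summed to 0.0419 to 0.572 CPM in naive, to 12.8, 135.3 and 111.9 in the libraries of YAP1-MAMLD1-dR3R1, to 9.90, 3.36 and 3.65 in those of YAP1-FAM118B and to 3.09, 2.93 and 48.0 in those of YAP1-TFE3. Each of the 9 tumour libraries was then above naive. The T and NK markers were called higher for 10, 2 and 7 of 12, where 34.4%, 21.3% and 40.6% of all genes were, so the share in YAP1-FAM118B was not above that of all genes. Without both libraries that held Xist and Ddx3y they were 7, 2 and 3. As in Ifng and nearly all members, replicate 1 was the lowest of YAP1-MAMLD1-dR3R1 and replicate 3 the highest of YAP1-TFE3. Microglia markers (10 genes) summed to 309.5 to 381.1 CPM in naive, 5132, 7566 and 8652 in tumours of YAP1-MAMLD1-dR3R1, 1783, 1742 and 1987 in those of YAP1-FAM118B and 1479, 1272 and 3633 in YAP1-TFE3, with 10, 7 and 8 called higher. Monocyte and macrophage markers (10 genes) summed to 43.3 to 55.7 CPM in naive, to 4650, 2538 and 3107 in YAP1-MAMLD1-dR3R1 replicates 1 to 3, to 1536, 708.3 and 1671 in YAP1-FAM118B and to 2102, 1825 and 2792 in YAP1-TFE3, and 10, 10 and 9 were called higher. In naive Ly6c2 was at 0. Replicate 1 was thus the highest of YAP1-MAMLD1-dR3R1 for these markers, and replicate 3 the highest of YAP1-FAM118B for these and for microglia markers, whereas the interferon-stimulated genes were lowest in those libraries for 37 and 35 of 38. Of the other immune lists, 2, 0 and 0 of 3 B cell markers were called higher, 2, 2 and 2 of 4 neutrophil markers and 4, 1 and 4 of 6 markers of conventional dendritic cells. Markers of plasmacytoid dendritic cells, a main source of type I interferon, were called higher for 6, 1 and 2 of 7 and lower for 1, 0 and 1. In that list Pacsin1 had 13501, 10926 and 10071 counts in naive and 1657, 961 and 156 in YAP1-MAMLD1-dR3R1. Siglech and Cox6a2 also had reads in naive cortex, with 293, 293 and 251 counts and 89, 80 and 112 counts. Higher levels in this list thus need not mean more plasmacytoid dendritic cells, which was not tested. Beside the counts of all these immune lists, 34.4%, 21.3% and 40.6% of all genes were called higher. The plasmacytoid share was thus not above that of all genes in YAP1-FAM118B or YAP1-TFE3. Without both libraries that held Xist and Ddx3y, the markers called higher were 2, 0 and 1 for neutrophils, 2, 1 and 1 for conventional and 4, 1 and 1 for plasmacytoid dendritic cells. The part of these cells in the levels of the interferon-stimulated genes was not tested.

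**Figure D5:**
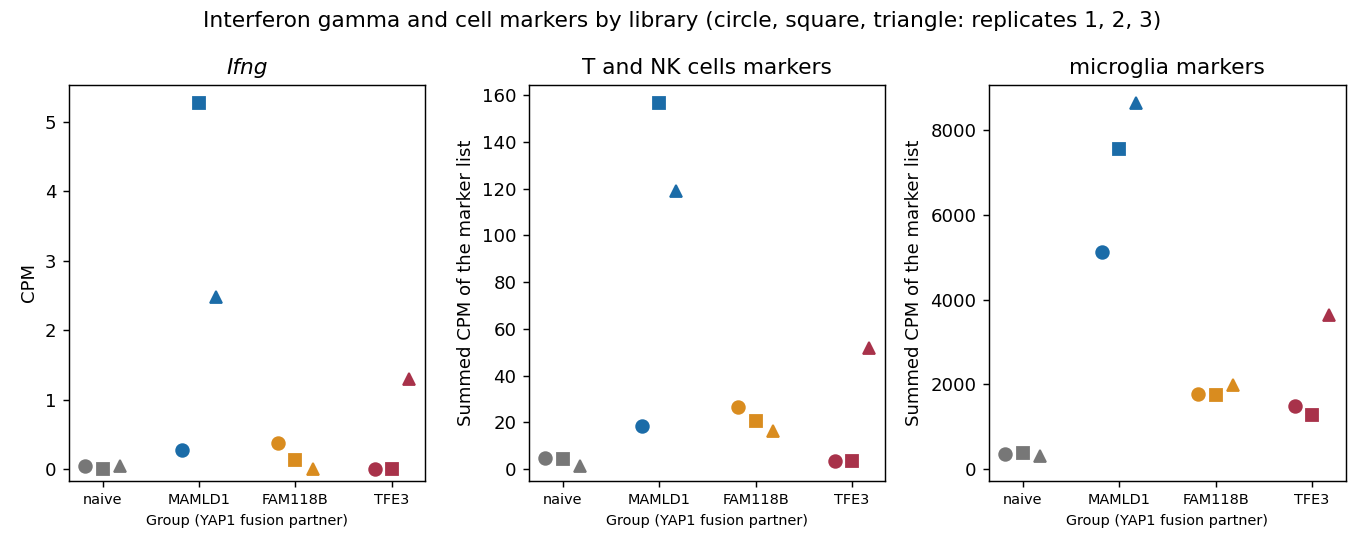
Ifng (CPM) and summed CPM of markers of T and NK cells and of microglia by group, on linear axes, with a circle, square and triangle for replicates 1, 2 and 3. YAP1-TFE3 replicate 3 is the highest of its group in all 3 plots, YAP1-MAMLD1-dR3R1 replicate 1 the lowest of its group, and YAP1-FAM118B reaches no more than 26.6 CPM for T and NK markers.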

How the data were processed

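The deposited files hold raw read counts per gene, 1 file per library, which the authors obtained by running HTSeq; the submitters' processing notes name build mm10. Versions, aligner, annotation and strand setting: not given in the sources used here. Without strand, reads of overlapping genes cannot be told apart. Values were whole numbers and no 2 libraries were duplicates. From these counts, edgeR 4.0.16 (R 4.3.3, limma 3.58.1) kept 16364 of 24421 genes (filterByExpr, minimum count 10), scaled them by TMM and fitted 1 quasi-likelihood model with a mean per group to all 12 libraries. Contrasts of group means were adjusted by Benjamini-Hochberg over all genes tested at 0.05. The standard error is the fold change divided by the square root of its F statistic. CPM uses TMM-scaled library sizes, and log2 CPM in the heat map a prior count of 2. Promoters come from the RefSeq table on GRCm38.p6, the same build as mm10, and were searched on both strands.

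The members and lists were chosen with earlier results of these data known. All 38 members are counted by role. Values in every library are given for up to 3 members of each role by mean CPM, for members that differed between fusions (up to 5 by adjusted p in each contrast) and for members that did not pass in a fusion; pathway lists are given by counts and up to 3 members by mean CPM, with Ifng and Ifnb1 always named. Other members are given as fold changes or levels. Pias1 and Ido1 were named after their values were seen. Alternatives were other scaling factors, DESeq2 1.42.0, other filters, a test against 2-fold, a replicate block, a fit of only the groups compared and leaving out libraries. Scripts were tested on simulated data. A signalling gene that this rule also names, and the counts of its list, are not reported here. Marker genes Trbc1, Trbc2 and Ly6g were not analysed here.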

Additional observations from a re-analysis of the deposited data

How the results depend on the processing

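Against naive, the count of higher members stayed at 38 in YAP1-MAMLD1-dR3R1 under every alternative except DESeq2, which gave 36 with no adjusted p for Gbp2 and Iigp1, and ran from 36 to 38 in YAP1-TFE3. In YAP1-FAM118B the 34 became 38 with only the groups compared, 35 of 36 with DESeq2, 19 against 2-fold, 21 to 34 when 1 library was left out and 14 without naive replicate 2 and YAP1-FAM118B replicate 2 together. Between fusions, the 24 members lower in YAP1-FAM118B than in YAP1-MAMLD1-dR3R1 became 35 of 36 with DESeq2, 31 with upper-quartile and 29 with RLE factors, 0 against 2-fold, 2 without naive replicate 2 and YAP1-FAM118B replicate 2, and 7 to 32 when 1 library was left out. The 8 lower in YAP1-TFE3 than in YAP1-MAMLD1-dR3R1 became 13 with library size only or a filter of 1 CPM in 3 samples, 19 with DESeq2, 12 with RLE or upper-quartile factors, 3 with only the groups compared, 0 against 2-fold and 3 to 30 when 1 library was left out. The 3 higher became 0 against 2-fold and 2 to 3 when 1 library was left out. In YAP1-TFE3 against YAP1-FAM118B the 10 higher became 6 against 2-fold, 7 without naive replicate 2 and YAP1-FAM118B replicate 2, and 6 to 8 when 1 library was left out, and the 0 lower became 0 to 3. The cause of these changes was not tested.

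Replicate numbers did not pair the samples: deviations of same-numbered libraries correlated between −0.111 and 0.324, over 0.1 in 4 of 18 pairs. With the replicate number as a block the 24 lower members in YAP1-FAM118B against YAP1-MAMLD1-dR3R1 became 15.

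Of 2329 recomputed values for 138 named results, 2179 kept direction and side of the threshold, 111 lost and 20 gained a call and 19 changed sign. The sign changes were in genes of the pathway lists and none in a member. Jak1 in YAP1-MAMLD1-dR3R1 was at −0.0196 with RLE factors and −0.0192 with DESeq2. Tbk1 in YAP1-MAMLD1-dR3R1 was at 0.0146 with upper-quartile factors and between −0.0559 and 0.013 when 1 library was left out. Tbk1 in YAP1-TFE3 was at −0.0957 with RLE factors, −0.0954 with DESeq2, −0.064 with upper-quartile factors, −0.134 with library size only, −0.113 with no filter, −0.146 with 1 CPM in 3 samples, −0.147 with only the groups compared, and between −0.283 and 0.0707 when 1 library was left out. With 1 library left out, Traf3 in YAP1-MAMLD1-dR3R1 ran from −0.155 to 0.134, Adar in YAP1-TFE3 from −0.363 to 0.0043 and Ifng in YAP1-TFE3 from −2.65 (without YAP1-TFE3 replicate 3) to 4.07. The median of all genes in YAP1-TFE3 against naive was 0.23 with TMM, 0.07 with RLE, 0.10 with upper-quartile factors and 0.03 with library size only. Depth limits the ligands, which had few or no counts.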
